A study of Mus musculus with 28 samples.

Results

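Genes of the peroxisome, the organelle that shortens very long-chain and branched fatty acids and breaks down the hydrogen peroxide this produces, were followed through the livers of 28 male C57BL/6J mice. The genes are Ehhadh, Acaa1b, Acox2, Scp2, Decr2, Crat, Abcd3, Pex11a and Cat, 9 of the 18820 genes that had a probe set naming a single gene. They were taken by symbol, and each had 1 such probe set, so no choice between probe sets arose. Each mouse gave 1 single-colour whole-transcript array, and values are log2 expression as deposited, so a difference of 1 is a 2-fold difference. Every animal lived on an intermittent diet when sampled, alternating weekly between free access to moderate-fat food, with 25% of its energy as fat, and a ration that held 60% of the energy control animals consumed. The switched group (n = 8, sampled at 24 months) ate the moderate-fat food without a break until 12 months of age and only then entered the alternation. The lifelong groups entered it at 9 weeks of age; 6 of them were sampled at 6 months, 7 at 12 months and 7 at 24 months. Every mouse was housed singly, and its liver was taken after a 4-hour fast, a gavage of carboxymethyl cellulose and a further 6-hour fast. Livers from the study's other diets were not analysed here, and whether a mouse was in its free-feeding or its restricted week when sampled is not given.

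Array medians lay between 5.23 and 5.31, Pearson's r between arrays across probe sets was 0.978 to 0.992, and the number of arrays limits the precision of every difference below. The tissue label fitted its markers: the mean level of 10 hepatocyte genes lay between 12.82 and 13.03 in every liver, and Alb, the plasma albumin gene, did not go below 13.48. Whole liver was measured, so fewer cells of a type and less RNA per cell cannot be told apart. Arrays fell into 3 sets by the prefix of their name (G150, G151 and G152), which held 6, 1 and 1 switched livers, then 4, 1 and 1 of the lifelong livers aged 6 months, 4, 2 and 1 of those aged 12 months, and 4, 1 and 2 of those aged 24 months. The set was a term of the main fit of all arrays. Differences between groups come from that fit unless an alternative is named. They can therefore depart from the gap between the plain group means printed beside them. Differences given within an array set are those of plain means.

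Peroxisomal beta oxidation starts when a fatty acyl-CoA crosses the membrane through an ABC transporter such as Abcd3 (PMP70). An oxidase then makes the first double bond and hydrogen peroxide, Ehhadh (the bifunctional enzyme) hydrates and dehydrogenates the product, and a thiolase such as Acaa1b or the Scp2 product releases acetyl-CoA. Decr2 reduces the double bonds of polyunsaturated substrates, Crat passes short acyl groups to carnitine for export, Pex11a takes part in elongation and division of the organelle, and catalase (Cat) removes the peroxide. In rodent liver many of these genes are classical targets of PPARA, a fatty acid-activated nuclear receptor that acts in fasting and binds DNA together with RXR at a direct repeat of AGGTCA with 1 base between the copies.

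RefSeq promoter windows of build GRCm38.p6 matched 8 of the 9 genes, and the 250 bases before the most upstream start are used here. Those of 4 genes whose levels moved together from liver to liver (Ehhadh, Acaa1b, Abcd3 and Pex11a) and of Cat, the gene of the 9 with the smallest spread, are printed below in the direction of transcription. All 5 genes lie on the minus strand, at chr16:21787835-21788084 (Ehhadh), chr9:119157094-119157343 (Acaa1b), chr3:121815303-121815552 (Abcd3), chr7:79743132-79743381 (Pex11a) and chr2:103485154-103485403 (Cat). Capitals mark matches, on either strand, to AGGTCA or to CCAAT (written ATTGG where it lies on the other strand).
Ehhadh: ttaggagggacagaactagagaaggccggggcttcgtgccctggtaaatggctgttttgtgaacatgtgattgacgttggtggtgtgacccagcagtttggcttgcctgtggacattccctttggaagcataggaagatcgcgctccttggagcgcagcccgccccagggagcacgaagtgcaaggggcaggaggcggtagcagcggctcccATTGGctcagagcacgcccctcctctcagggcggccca
Acaa1b: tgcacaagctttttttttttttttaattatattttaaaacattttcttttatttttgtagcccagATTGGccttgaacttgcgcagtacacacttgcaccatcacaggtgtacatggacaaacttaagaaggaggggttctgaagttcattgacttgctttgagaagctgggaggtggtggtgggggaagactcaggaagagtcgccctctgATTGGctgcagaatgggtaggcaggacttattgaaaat
Abcd3: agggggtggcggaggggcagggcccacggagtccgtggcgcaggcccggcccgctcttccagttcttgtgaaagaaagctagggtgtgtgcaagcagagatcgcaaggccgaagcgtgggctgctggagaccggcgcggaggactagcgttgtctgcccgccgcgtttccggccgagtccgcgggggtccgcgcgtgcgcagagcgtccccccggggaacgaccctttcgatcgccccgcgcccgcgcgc
Pex11a: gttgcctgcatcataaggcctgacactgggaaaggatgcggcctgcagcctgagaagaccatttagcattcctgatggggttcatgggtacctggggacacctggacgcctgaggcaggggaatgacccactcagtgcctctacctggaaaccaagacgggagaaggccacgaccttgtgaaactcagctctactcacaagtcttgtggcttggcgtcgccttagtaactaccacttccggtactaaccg
Cat: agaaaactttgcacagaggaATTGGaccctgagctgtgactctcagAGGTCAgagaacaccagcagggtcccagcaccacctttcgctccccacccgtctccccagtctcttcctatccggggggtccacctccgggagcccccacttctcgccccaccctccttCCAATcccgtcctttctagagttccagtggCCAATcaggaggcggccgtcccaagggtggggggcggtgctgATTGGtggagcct

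The full repeat AGGTCANAGGTCA, and the looser AGGNCANAGGNCA that contains it, were found in 0 of the 8 windows, against 0.037% and 0.337% of the 27025 promoter windows of the same length. A single copy of AGGTCA was found in 2 of 8, once in Cat (204 bases before the start) and once in Scp2 (109 bases before it), against 13.8% of all windows. CCAAT stood in 3 of 8 against 34.5% of all: Ehhadh and Acaa1b each had it on the other strand 38 bases before the start, Acaa1b had a second copy 185 bases before it, and Cat had 4 copies. TATAAA was found in 0 of 8, against 13.0%. The windows differed in base composition, with 41.6% G and C in Acaa1b, 55.6% in Pex11a, 60.4% in Ehhadh, 62.0% in Cat and 72.0% in Abcd3, against a median of 52.0% over all windows. These matches describe letters within 250 bases only and say nothing of sites farther away.

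The enzyme of the middle steps, Ehhadh, had the widest spread of the 9 genes. Its lowest, median and highest values were 10.90, 11.52 and 11.97 in switched livers. In lifelong livers they were 11.36, 12.45 and 13.08 at 6 months of age, 10.67, 11.06 and 12.30 at 12 months, and 11.04, 11.43 and 12.29 at 24 months. The 6-month livers formed an upper trio (replicates 2, 3 and 4, at 12.94, 13.03 and 13.08) and a lower trio (replicates 1, 5 and 6, at 11.36, 11.95 and 11.93), and the lower trio lay inside the range of the 12-month and 24-month groups. Within a single group the highest liver exceeded the lowest by 2.10-fold (switched), 3.28-fold (6 months), 3.10-fold (12 months) and 2.38-fold (24 months). The order of group means was 6 months (12.38 ± 0.73, SD, n = 6), lifelong 24 months (11.55 ± 0.39, n = 7), switched (11.48 ± 0.35, n = 8) and 12 months (11.25 ± 0.56, n = 7). In this order no pair of neighbours differed past the test threshold where they were tested (24 against 6 months, and switched against lifelong at 24 months); switched against 12 months was not tested.

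**Figure D1:**
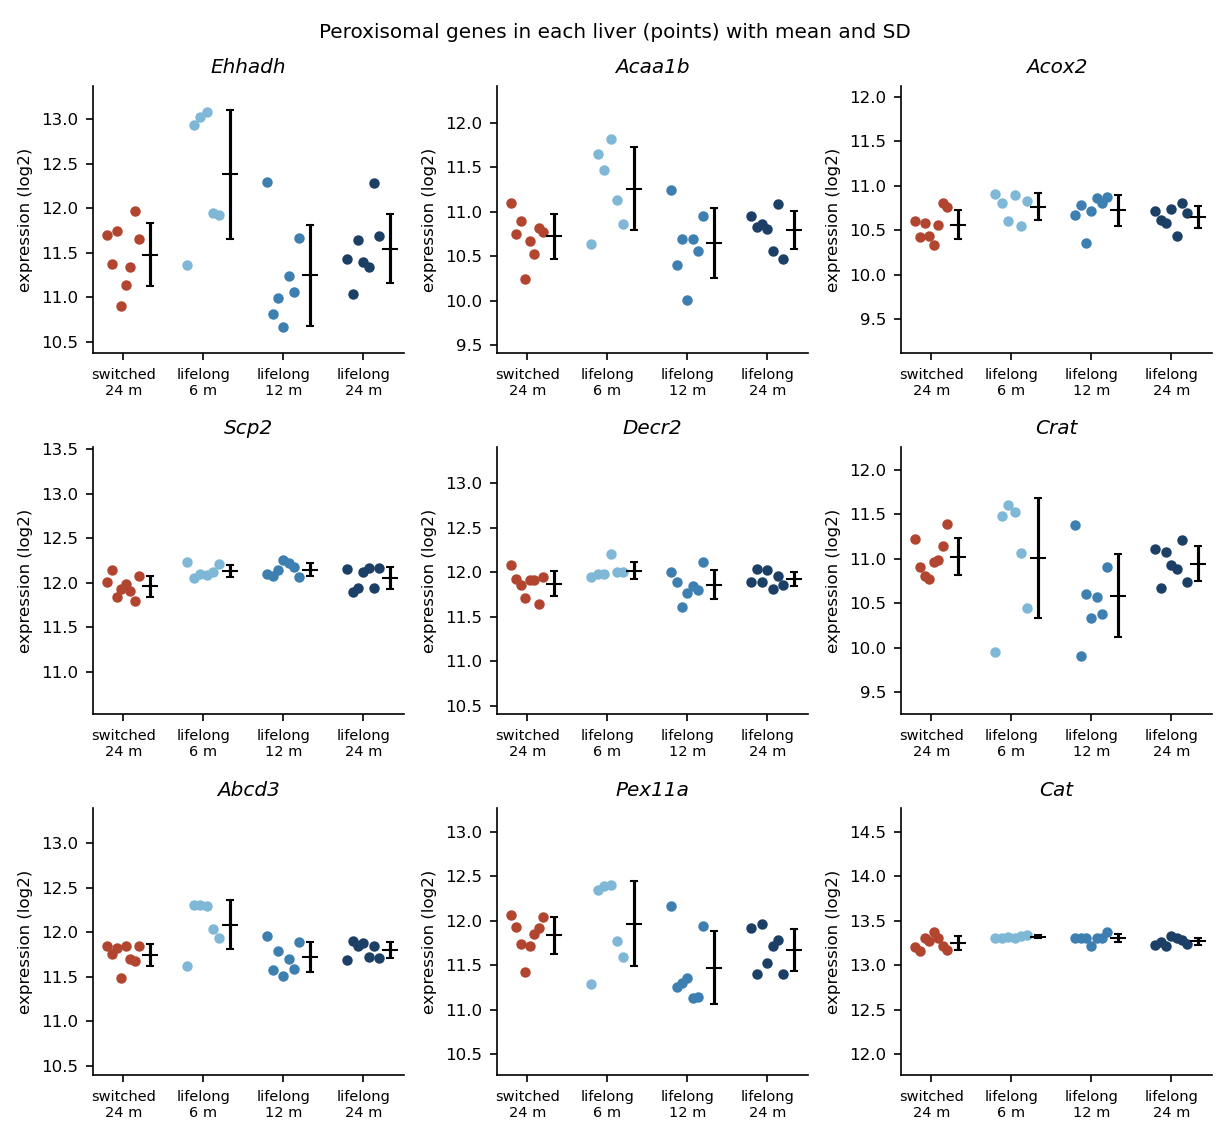
Log2 expression of the 9 genes in each of the 28 livers (points), by group, with the group mean and SD as bars to the right of the points; every panel spans 3 log2 units. Ehhadh at 6 months splits into livers near 13 and livers near 12 or below, and Crat, Pex11a, Acaa1b and Abcd3 have the same 3 livers on top at that age, while Cat, Scp2, Decr2 and Acox2 stay within narrow bands.

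Acaa1b, the peroxisomal thiolase that ends each round, followed a like pattern over a smaller range. It had 10.25, 10.77 and 11.10 (lowest, median, highest) in switched livers, and 10.64, 11.30 and 11.82 at 6 months of age, 10.01, 10.70 and 11.25 at 12 months, and 10.47, 10.83 and 11.09 at 24 months of the lifelong diet. Its neighbour and near-identical paralog Acaa1a had its own probe set and moved with it between livers (Pearson's r = 0.84 and Spearman's rho = 0.84 over 28 livers after group and array set were removed, given as a description), and the files do not show how far the probes of each gene also bind the other's RNA. The other oxidation genes were steadier. Acox2, the oxidase for branched-chain fatty acids and bile acid precursors, ranged from 10.33 to 10.91 over all 28 livers. Scp2, whose gene encodes both a thiolase for branched substrates and sterol carrier protein 2, ranged from 11.79 to 12.26. For Scp2 the lowest, median and highest values were 11.79, 11.96 and 12.14 in switched livers, 12.05, 12.11 and 12.23 at 6 months of age, 12.06, 12.14 and 12.26 at 12 months, and 11.90, 12.12 and 12.17 at 24 months, and all groups overlapped.

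Decr2 ranged from 11.61 to 12.20 over all livers. Crat, whose enzyme works in mitochondria as well as peroxisomes, spread most among the youngest. It had 10.77, 10.97 and 11.39 in switched livers, and 9.95, 11.27 and 11.60 at 6 months of age, 9.91, 10.57 and 11.38 at 12 months, and 10.67, 10.93 and 11.21 at 24 months of the lifelong diet. The lowest 6-month liver (replicate 1) was thus 3.15-fold below the highest, and it also had the lowest value of its group for Ehhadh, Acaa1b, Abcd3 and Pex11a. The transporter Abcd3 had 11.48, 11.79 and 11.85 in switched livers, and, on the lifelong diet, 11.62, 12.16 and 12.31 at 6 months of age, 11.51, 11.70 and 11.96 at 12 months, and 11.69, 11.84 and 11.90 at 24 months. The division factor Pex11a had 11.42, 11.88 and 12.06 in switched livers, and 11.29, 12.06 and 12.40 at 6 months of age, 11.13, 11.30 and 12.16 at 12 months, and 11.40, 11.72 and 11.96 at 24 months of the lifelong diet. For both, the 3 upper 6-month livers stood above every liver of the other groups. Cat ranged only from 13.16 to 13.37 over the 28 livers, and its 6 values at 6 months lay within 0.03 of each other. It was brighter than 99.9% of all probe sets, near the upper end of the deposited scale (14.26).

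After group and array set were removed, the SD between livers was 0.51 for Ehhadh, 0.43 for Crat, 0.35 for Pex11a and 0.34 for Acaa1b, and 98.6%, 97.6%, 95.6% and 95.1% of all genes had a smaller one. Abcd3 had an SD of 0.18 and Acox2 of 0.15, on either side of the median gene (0.16). Decr2 (0.13), Scp2 (0.10) and Cat (0.05) had smaller SDs, and 0.085% of genes had a smaller one than Cat. With Cat this near the upper end of the scale, its small SD does not show that its RNA was steady.

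The 5 genes Ehhadh, Acaa1b, Crat, Abcd3 and Pex11a varied together from liver to liver inside the groups. Over 28 livers, with group and array set removed, all 10 pairs among them had r between 0.77 and 0.89 and Spearman's rho between 0.69 and 0.86. Each of the 10 passed a two-sided permutation test with 100000 resamples. Their unadjusted permutation p was 1e-05, the smallest that number of resamples can give. Adjusted by Benjamini-Hochberg over the 36 pairs of the 9 genes, it was 3.6e-05. These 5 were grouped after their correlations had been seen. The closest pair was Crat with Pex11a (r = 0.89). With the 2 livers farthest from the median of the first gene left out, r was 0.65 to 0.84, and in array set G150 alone it was 0.78 to 0.93. Because the 6-month livers split into an upper and a lower trio, the pairs were also taken without that group, and r was 0.59 to 0.84. Within the other groups r was 0.49 to 0.81 in switched livers, 0.71 to 0.94 at 12 months and -0.20 to 0.85 at 24 months of the lifelong diet. The values below 0 were all of Abcd3, which did not vary with Ehhadh (-0.06), Crat (-0.05) or Pex11a (-0.20) in that last group. With Acaa1b its r there was 0.44.

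Some livers stood at the same end of their group for all 5 genes. At 6 months replicates 2, 3 and 4 held the top 3 places for 5 of 5 genes and replicate 1 the lowest place for 5 of 5. At 12 months replicate 1 was highest for 5 of 5, with replicate 7 next to it for 5 of 5. In the switched group replicate 4 was lowest for 5 of 5, while the highest place was held by replicate 1 for 3 genes and by replicates 7 and 8 for 1 each. At 24 months of the lifelong diet neither end had a single holder: replicate 6 was highest for 3 of 5 and replicates 2 and 3 for 1 each, and the lowest place was split over replicates 1, 2 and 7.

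**Figure D2:**
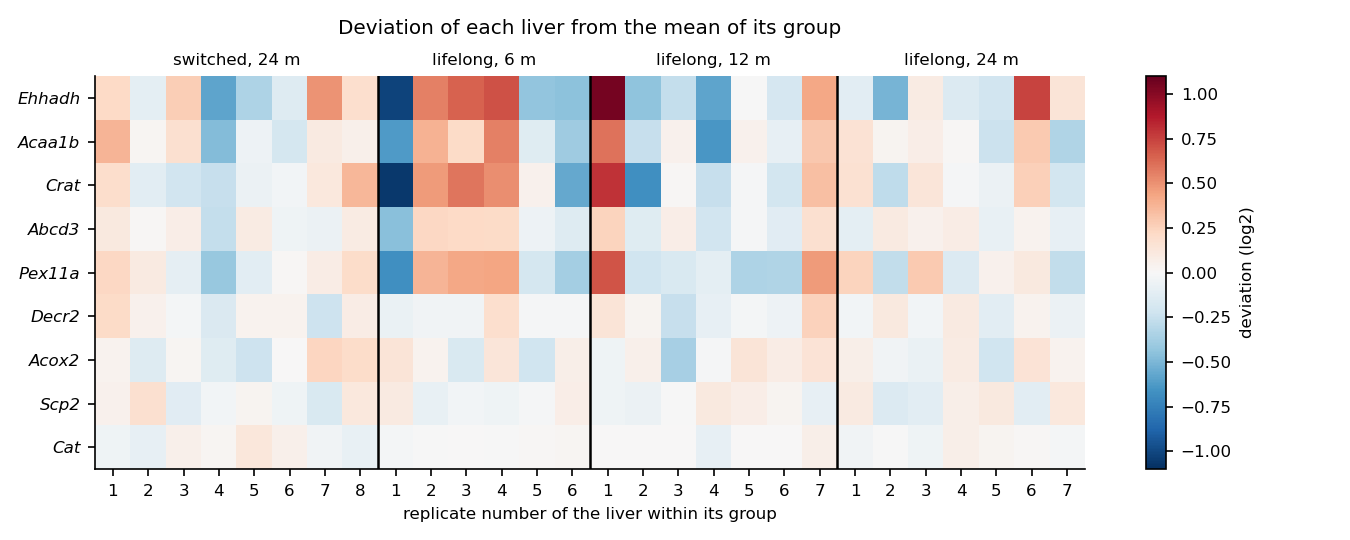
Deviation of each liver (columns, by group and replicate number) from the mean of its group for the 9 genes (rows), in log2 units on a colour scale from blue (below) to red (above). Replicate 1 at 6 months is blue and replicate 1 at 12 months red in the upper 5 rows, and the rows of Acox2, Scp2 and Cat are pale throughout.

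Decr2 was linked with some of the 5: r was 0.54 with Abcd3, 0.52 with Acaa1b and 0.50 with Pex11a (adjusted permutation p = 0.011, 0.013 and 0.020), while its pairs with Ehhadh and Crat (0.35 and 0.34) did not pass. Acox2, Scp2 and Cat stood outside. Of their 15 pairs with the 5 genes, 0 passed by r, with values from -0.43 to 0.31. The most negative was Scp2 with Acaa1b (r = -0.43, adjusted permutation p = 0.055), and it passed by rank (rho = -0.47, adjusted permutation p = 0.031). In all, 13 of the 36 pairs passed by r and 14 by rho. Within single groups, given as a description, Scp2 had r of -0.94 to -0.87 with the 5 genes at 6 months. Its r was -0.63 to -0.28 at 12 months, -0.77 to -0.09 at 24 months and -0.31 to 0.33 in switched livers. Cat had 0.35 to 0.77 at 12 months, -0.58 to -0.04 in switched livers, -0.10 to 0.15 at 6 months and -0.31 to 0.27 at 24 months. Acox2 had 0.12 to 0.82 in switched livers and -0.40 to 0.56 over the lifelong groups.

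**Figure D3:**
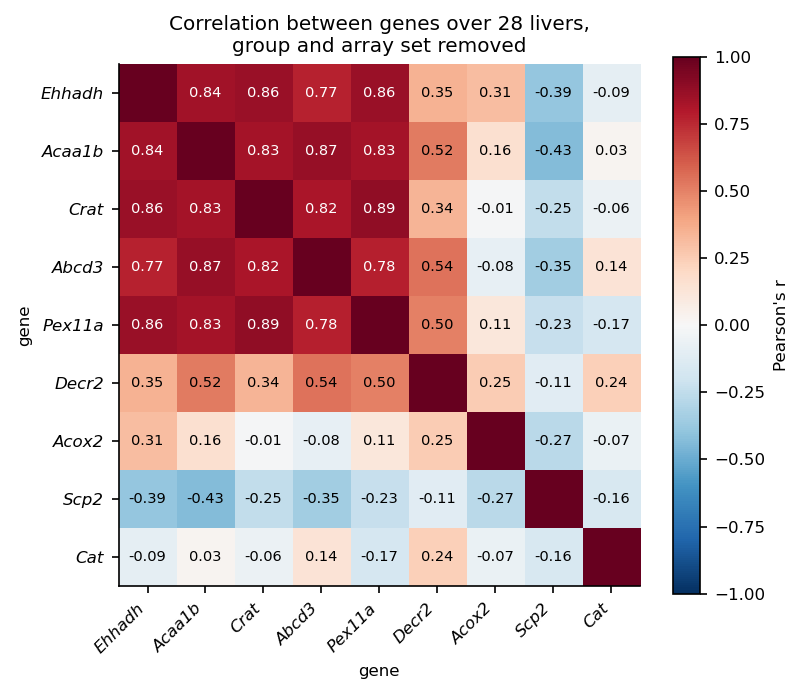
Pearson's r between the 9 genes over 28 livers after group and array set were removed, red for positive and blue for negative. The upper left block of Ehhadh, Acaa1b, Crat, Abcd3 and Pex11a holds values of 0.77 to 0.89, and the rows of Acox2, Scp2 and Cat hold values between -0.43 and 0.31.

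Of the 18811 genes outside the 9, those whose residuals were most like the mean of the members' standardised residuals over the 28 livers were Retsat (retinol saturase, r = 0.89), Decr1 (the mitochondrial dienoyl-CoA reductase, 0.88), Etfdh (electron transfer flavoprotein dehydrogenase, 0.88), Hadhb (the thiolase subunit of the mitochondrial trifunctional protein, 0.87), Aifm2 (a ubiquinone reductase, 0.86), Pla2g6 (a calcium-independent phospholipase, 0.86), Xrcc3 (a recombination repair factor, 0.85) and Acot2 (a mitochondrial acyl-CoA thioesterase, 0.85). Their rho lay between 0.78 and 0.90. Over these 18811 genes the median r was 0.00, 620 genes reached 0.5 and 25 reached 0.8. The values share the same arrays and are given as a description.

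How the 9 genes differed between 12 and 6 months of the lifelong diet was tested first. Ehhadh was lower at 12 months: 11.25 ± 0.56 (SD, n = 7) at 12 months against 12.38 ± 0.73 (n = 6) at 6 months, a difference of -1.16 (SE 0.27, 95% interval -1.71 to -0.60), or 2.23-fold lower, with a limma adjusted p of 0.0458 over all probe sets. All 7 livers at 12 months lay under the 6-month mean and 5 of them under the lowest 6-month liver, but the groups overlapped. Within array sets G150, G151 and G152 the difference was -0.88, -1.92 and -1.27. It was the 1 member that passed, against 0.591% of all 35556 probe sets (0.228% lower and 0.363% higher). The call stands close to the threshold: it was lost when any of 9 of the 13 livers was left out (6-month replicates 2, 3, 4 and 6 and 12-month replicates 2, 3, 4, 5 and 6, adjusted p up to 0.164 and difference between -1.37 and -1.01) and in array set G150 alone (adjusted p = 0.689).

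The other members at 12 months did not pass. Abcd3 averaged 11.72 ± 0.17 at 12 months against 12.08 ± 0.27 at 6 months (difference -0.37, SE 0.10, limma adjusted p = 0.0784), with 7 of 7 livers at 12 months under the 6-month mean and -0.26, -0.65 and -0.43 within the 3 array sets. Acaa1b averaged 10.65 ± 0.40 against 11.26 ± 0.46 (difference -0.62, limma adjusted p = 0.106), again with 7 of 7 below, and within-set values of -0.40, -1.19 and -0.86. Abcd3 and Acaa1b passed when 6-month replicate 1 (limma adjusted p = 0.00861 and 0.0293) or 12-month replicate 1 (0.0451 and 0.0441) was left out, the livers that stood lowest and highest of their groups for all 5 co-varying genes. Pex11a differed by -0.49 (limma adjusted p = 0.245), Crat by -0.43 (0.435) and Decr2 by -0.16 (0.333). For Acox2 (-0.06, 95% interval -0.23 to 0.12), Scp2 (0.01, -0.12 to 0.13) and Cat (-0.01, -0.09 to 0.07) the intervals stayed within 0.23 of 0. Of the 9 differences 8 were negative, with a median of -0.37 against 0.001 over all probe sets, and 5 had an unadjusted p under 0.05, as did 13.1% of all probe sets. Since 5 of the genes varied together between livers, these signs and p-values are not independent.

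Between 24 and 6 months of the lifelong diet, 0 of the 9 passed in limma, while 4.73% of all probe sets passed (2.63% lower and 2.10% higher). An unadjusted p under 0.05 was reached by 3 of the 9 and by 19.2% of all probe sets. Ehhadh averaged 11.55 ± 0.39 at 24 months (n = 7) against 12.38 ± 0.73 at 6 months (n = 6), a difference of -0.79 (95% interval -1.35 to -0.23, limma adjusted p = 0.0892). Abcd3 differed by -0.28 (limma adjusted p = 0.0991) and Acaa1b by -0.44 (0.167), and 7 of 7 livers at 24 months lay under the 6-month mean for each of these 3 genes. Without 6-month replicate 1, Ehhadh (limma adjusted p = 0.0214) and Abcd3 (0.0109) passed. The other differences were -0.29 for Pex11a, -0.12 for Acox2, -0.10 for Decr2, -0.09 for Scp2 and -0.05 for Crat and for Cat. All 9 were negative, with a median of -0.12 against -0.016 over all probe sets. These signs are not independent either, since 5 of the genes varied together between livers. The comparisons of 12 and of 24 months with 6 months share the 6-month livers, and those of 24 with 12 months and of switched with lifelong livers share the 24-month livers.

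From 12 months on, no member passed. For 24 against 12 months limma passed 0 of 9, against 0.0253% of all probe sets (0.0141% higher and 0.0112% lower). An unadjusted limma p under 0.05 was reached by 0 of the 9 and by 11.1% of all probe sets. The largest differences were Crat at 0.39 (10.95 ± 0.20 at 24 months against 10.58 ± 0.47 at 12 months, 95% interval -0.07 to 0.84, limma adjusted p = 0.531), where 7 of 7 of the older livers exceeded the 12-month mean, and Ehhadh at 0.37 (95% interval -0.17 to 0.91, limma adjusted p = 0.632). Pex11a differed by 0.20, Acaa1b by 0.18, Abcd3 by 0.09, Decr2 by 0.07, Cat by -0.04, Acox2 by -0.06 and Scp2 by -0.09.

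Switched and lifelong livers at 24 months differed by little in all 9 genes. In limma 0 of 9 passed, against 0.0197% of all probe sets (0.0141% higher and 0.00562% lower). An unadjusted limma p under 0.05 was reached by 0 of the 9 and by 7.58% of all probe sets. Ehhadh averaged 11.48 ± 0.35 in switched livers (n = 8) and 11.55 ± 0.39 in lifelong livers (n = 7), a difference of -0.12 with a 95% interval of -0.64 to 0.40. Pex11a averaged 11.83 ± 0.21 in switched and 11.67 ± 0.24 in lifelong livers (0.15, interval -0.22 to 0.51), with 7 of 8 switched livers above the lifelong mean. Within array set G150, with 6 switched and 4 lifelong livers, the Pex11a difference was 0.02. It was 0.66 in G151 and 0.38 in G152, where a group had only 1 or 2 livers. Crat differed by 0.06 (interval -0.38 to 0.50) and Acaa1b by -0.10 (-0.45 to 0.25). The intervals of Cat (-0.10 to 0.05) and Scp2 (-0.19 to 0.04) were the tightest. Acox2 differed by -0.07, Abcd3 by -0.06 and Decr2 by -0.05. With intervals this wide for Ehhadh, Crat and Pex11a, the data do not show that the groups are alike.

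**Figure D4:**
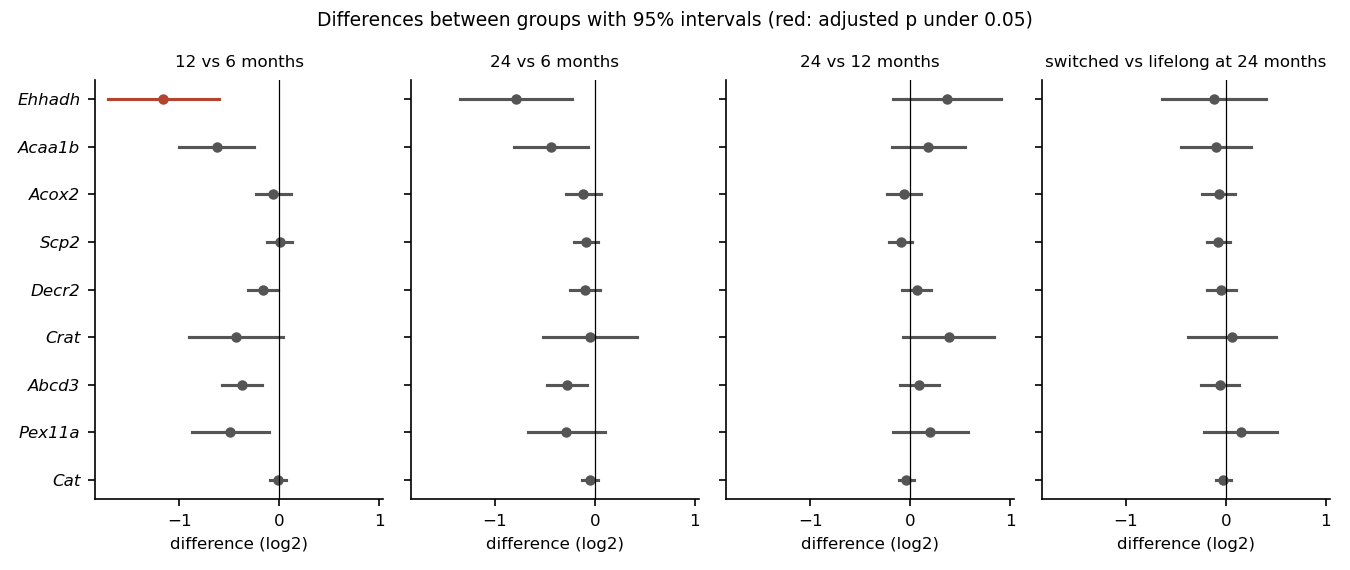
Difference in log2 expression (points) with 95% interval (lines) for the 9 genes in 4 comparisons, the group named first minus the other; red marks an adjusted p under 0.05. Ehhadh at 12 against 6 months (-1.16) is the only red point, and the intervals of the switched comparison all cross 0.

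Further genes of the organelle were taken as 7 lists of 71 genes, of which 62 had a probe set naming a single gene and 53 are not among the 9 members. At 12 against 6 months 0 of these 53 passed in limma, against 0.591% of all probe sets, and 14 had an unadjusted p under 0.05, against 13.1% of all. With the members the median difference was -0.08. By list the median was -0.16 for beta oxidation (17 genes, Ehhadh the 1 that passed), -0.12 for membrane transport (9 genes), -0.09 for the peroxins, which build the organelle and import its proteins (13 genes), -0.07 for division (5 genes), -0.12 for alpha oxidation, ether lipids and bile acid conjugation (8 genes), -0.01 for peroxide and epoxide removal (3 genes) and 0.09 for other oxidases (7 genes). Agps, an ether lipid synthase, had the smallest p of the 53, with 6.35 ± 0.15 at 12 months against 6.58 ± 0.15 at 6 months (-0.25, limma adjusted p = 0.174).

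At 24 against 6 months 2 of the 53 passed, in opposite directions, a share no higher than the 4.73% of all probe sets. Hao1, the liver glycolate oxidase, was lower, with 9.80, 10.11 and 10.31 (lowest, median, highest) at 24 months against 10.37, 10.55 and 10.85 at 6 months (-0.55, limma adjusted p = 0.00436), and the groups did not overlap. Within the array sets its difference was -0.52, -0.25 and -0.83. Mpv17, a membrane protein of the Pxmp2 family best known from the inner mitochondrial membrane, was higher, with 9.75, 9.89 and 10.12 at 24 months against 9.62, 9.66 and 9.74 at 6 months (0.21, limma adjusted p = 0.0339), also without overlap, and 0.19, 0.13 and 0.28 within the array sets. The call of Mpv17 was lost without any of 6-month replicates 2, 3, 4 and 6 or 24-month replicates 1, 3, 5 and 6; that of Hao1 was kept in all 13 such fits and lost in array set G150 alone and in sets G151 and G152 alone. Abcd2, a transporter of very long-chain acyl-CoA, averaged 8.95 ± 0.58 at 24 months against 8.06 ± 0.69 at 6 months (0.92, limma adjusted p = 0.0643), and Ephx2, the soluble epoxide hydrolase, 11.74 ± 0.11 against 11.97 ± 0.13 (-0.22, limma adjusted p = 0.0645).

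At 24 against 12 months 0 of the 53 passed in limma and 4 had an unadjusted p under 0.05, against 11.1% of all probe sets: Hao1 (-0.34, limma adjusted p = 0.197), Far1, a reductase of ether lipid synthesis (0.31, 0.382), Hao2, which oxidises long-chain hydroxy acids (0.62, 0.407), and Phyh of alpha oxidation (-0.13, 0.415). In switched against lifelong livers at 24 months 1 of the 53 passed, against 0.0197% of all probe sets. Hao2 had 4.84, 6.04 and 6.41 in switched livers against 3.24, 3.91 and 5.94 in lifelong livers (1.80, limma adjusted p = 0.00940), with 8 of 8 switched livers above the lifelong mean and 1.89, 3.10 and 0.98 within the array sets. Its call was lost without lifelong replicate 4 or replicate 7. The lifelong values of Hao2 at 12 and 24 months lay mostly under the array medians, and detection calls were not used here, so they may not be above background; both Hao2 differences are differences of deposited values and give no fold of RNA. Ephx2 (-0.22, limma adjusted p = 0.343), the peroxin Pex6 (-0.22, 0.360) and Nudt7, a peroxisomal CoA hydrolase (-0.43, 0.383), did not pass.

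**Figure D5:**
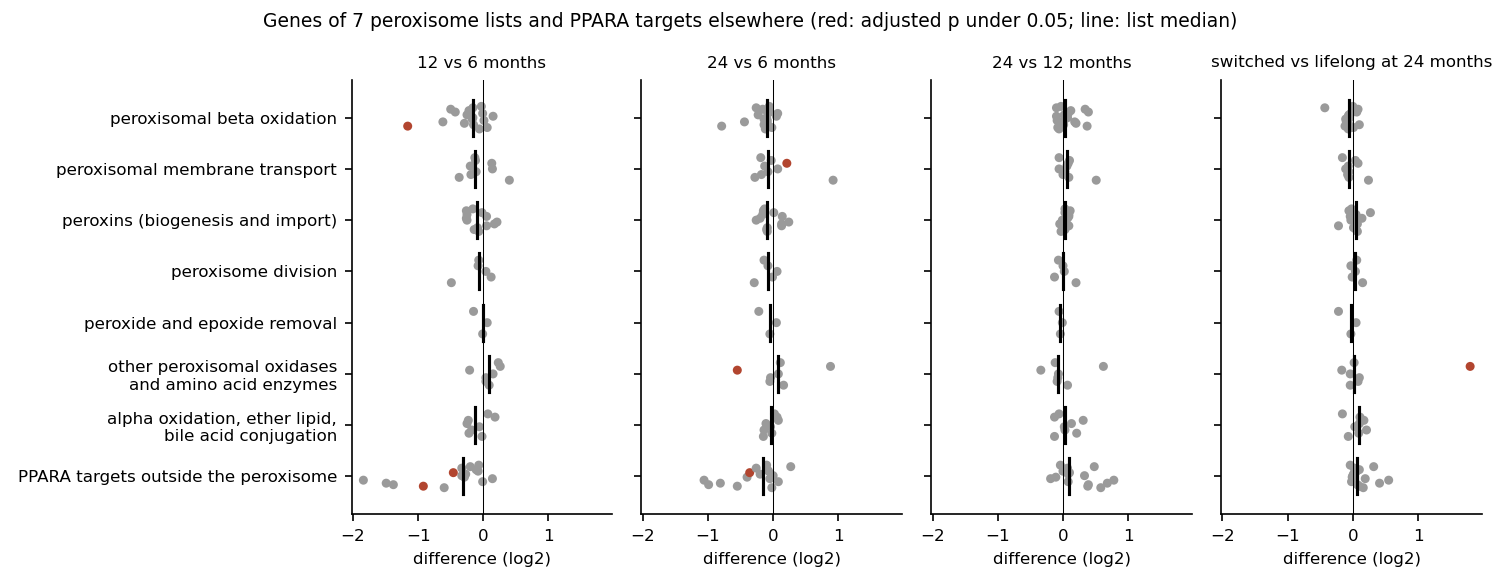
Difference in log2 expression for each measured gene (points) of 7 peroxisome lists and of PPARA targets outside the peroxisome in 4 comparisons, the group named first minus the other; the thick line is the median of a list and red marks an adjusted p under 0.05. The medians stay between -0.16 and 0.09 for the peroxisome lists, and red points are few: Ehhadh, Hao1, Mpv17 and Hao2 among peroxisome genes.

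PPARA targets that act outside the peroxisome were read for comparison, and 16 of 20 listed genes were measured. At 12 against 6 months 2 of these 16 fell, against 0.228% of all probe sets, and 15 differences were negative, with a median of -0.31. An unadjusted limma p under 0.05 was reached by 9 of the 16 and by 13.1% of all probe sets. Hadhb averaged 10.16 ± 0.19 at 12 months against 10.60 ± 0.30 at 6 months (-0.46, limma adjusted p = 0.0330), and Cyp4a31, a microsomal fatty acid hydroxylase, 10.54 ± 0.56 against 11.44 ± 0.44 (-0.92, 0.0463). The thioesterases Acot2 (-1.49, limma adjusted p = 0.0898) and Acot1 (-1.38, 0.116) did not pass. At 24 against 6 months 1 of the 16 fell, against 2.63% of all probe sets: Hadhb (-0.36, limma adjusted p = 0.0288). The median there was -0.15, and 6 of the 16 had an unadjusted limma p under 0.05, against 19.2% of all probe sets. At 24 against 12 months 0 of 16 passed (2 at an unadjusted p under 0.05, against 11.1% of all probe sets, median 0.09). In switched against lifelong livers 0 of 16 passed, with a median of 0.07. There 0 had an unadjusted limma p under 0.05, against 7.58% of all probe sets.

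Levels of other cell types were read beside these results. Of 6 Kupffer cell genes 0 passed in limma in any of the 4 comparisons. Their mean level lay between 7.59 and 8.13 at 12 months against 7.99 to 8.62 at 6 months, with a median difference of -0.37. In that comparison 6 of 6 lymphocyte genes (median -0.15) and 3 of 3 fat cell genes (median -0.15) had negative differences, 0 at an unadjusted limma p under 0.05. Endothelial, stellate cell and cholangiocyte genes had differences of both signs. What part these cell types had in the Ehhadh difference was not tested. Of 10 hepatocyte genes 0 passed at 12 against 6 months (median -0.05, 0 at an unadjusted p under 0.05, against 13.1% of all probe sets). At 24 against 6 months 2 of 6 lymphocyte genes were higher, the B cell genes Cd79b and Ms4a1, against 2.1% of all probe sets. The mean level of the 6 lay between 5.21 and 6.13 at 24 months against 5.11 to 5.57 at 6 months. The 6 Kupffer cell genes were all above 0 in their difference (median 0.35, 0 passing), with mean levels of 7.85 to 9.57 at 24 months against 7.99 to 8.62 at 6 months. Of the hepatocyte genes 1 of 10, the aminotransferase gene Tat, was lower, against 2.63% of all probe sets. Their part in the Hao1 and Mpv17 differences was not tested. At 24 against 12 months differences were positive for 6 of 6 Kupffer cell genes (median 0.71) and 6 of 6 lymphocyte genes (median 0.62). Of each list 4 genes had an unadjusted limma p under 0.05, against 11.1% of all probe sets. In limma 1 of the 6 lymphocyte genes passed as higher, against 0.0141% of all probe sets. What part these cell types had in the differences of the 9 members at 24 against 12 months was not tested. In switched against lifelong livers 0 genes of the 7 marker lists passed. Differences were positive for 6 of 6 stellate cell genes (median 0.17). Their mean level was 8.27 to 8.68 in switched and 8.00 to 8.55 in lifelong livers. Of these genes 2 had an unadjusted limma p under 0.05, against 7.58% of all probe sets. For lymphocyte genes 6 of 6 differences were negative (median -0.15, 0 at an unadjusted p under 0.05). What part these cell types had in the Hao2 difference was not tested.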

How the data were processed

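Liver RNA with an integrity number above 8.0 was hybridised to single-colour arrays, per the labels. The deposited values are log2 expression that the authors obtained with RMA, per the submitters' processing notes; no version of it is recorded. All 28 arrays and 35556 probe sets were fitted together, with group and array set as fixed terms, by limma 3.58.1 under R 4.3.3 with empirical Bayes moderation. Tests were two-sided, with Benjamini-Hochberg adjustment over all probe sets of a comparison and a threshold of 0.05. Of the probe sets 21218 name 1 gene, 1881 several and 12457 none in the annotation used. Where a gene had several, the one with the highest mean stood for it. Residual correlations, promoter searches and figures used Python 3.11.15, numpy 2.4.6, pandas 2.3.3 and matplotlib 3.10.9. The fitting and correlation steps were tested on simulated data.

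Members and lists were chosen with earlier results of these data known. All members were named in all comparisons, as were list genes that passed (up to 8 by p, filled up to 4 by p), up to 4 PPARA targets with the smallest p in each comparison, and the 8 genes most like the members. Alternatives dropped the array set term, took sets alone, fitted only the groups compared, left out the lowest 30 percent of probe sets, repeated quantile normalization, centred arrays, used a trend with robust moderation or array weights, added a replicate block, took the second brightest probe set or left out arrays. The labels do not say whether mice shared a litter, so p-values measure the spread between these livers.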

Additional observations from a re-analysis of the deposited data

Results flagged for a closer look

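Each gene was examined in each of the 4 groups, 36 sets of values in all, for a liver far from the others of its group by Dixon's test, which chance meets in about 1 of 20 sets. In 3 sets it was met, all of genes with a narrow range. Acox2 had 10.36 in replicate 3 at 12 months, against 10.67 in the next liver. Decr2 had 12.2 in replicate 4 at 6 months, against 12.0 in the next. Cat had 13.21 in replicate 4 at 12 months, against 13.31 in the next. In the 5 genes that varied together no liver met it.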

How the results depend on the processing

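The residual correlations held best: 10 to 14 of 36 pairs passed under 5 alternatives, against 13, and the 10 pairs among Ehhadh, Acaa1b, Crat, Abcd3 and Pex11a passed in each. The count of 9 members passing at 12 against 6 months, 1 as reported, was 0 with no array set term, in array set G150 alone, with only the groups compared, without the pair of arrays whose names carry an added suffix, and in sets G151 and G152 alone, and 3 with array weights; with livers left out it ran from 0 to 3. The same counts and range held for the 7 peroxisome lists. Replicate numbers did not pair the livers (r of their deviations -0.11 to 0.15), and with the replicate block 0 members and 0 list genes passed (Ehhadh -1.21, adjusted p = 0.0784). Over the 11 alternatives other than left-out livers, Ehhadh lay between -1.60 and -0.88 with adjusted p between 0.0179 and 0.689. At 24 against 6 months members passing ran from 0 to 2 with livers left out, and list genes, 2 as reported, were 0 in set G150 alone, 1 with only the groups compared, 4 after dropping the dimmest 30 percent of probe sets, 5 with array weights, 5 without the suffix pair, 0 in sets G151 and G152, and 1 to 6 with livers left out. In switched against lifelong livers the 1 list gene became 0 with only the groups compared, without the suffix pair and in sets G151 and G152, and 0 to 1 with livers left out. The cause of these changes was not tested. Sets G151 and G152 alone, and the alternatives for the correlations, were chosen after seeing the data.

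Of 891 member values under alternatives 843 kept direction and side of the threshold, 15 lost and 8 gained a call, and 25, all of differences that did not pass, changed sign. At 12 against 6 months set G150 alone gave -0.03 for Scp2 and 0.01 for Cat. At 24 against 6 months Crat became 0.01 in set G150 and 0.04 without the suffix pair. In switched against lifelong livers sets G151 and G152 gave 0.20 for Ehhadh, 0.01 for Acox2, 0.13 for Acaa1b, 0.08 for Decr2 and 0.07 for Abcd3, and Crat became -0.10 in set G150, -0.05 with the replicate block and -0.02 without the suffix pair. With livers left out the values that changed sign ran, at 12 against 6 months, from -0.09 to 0.00 (Acox2), -0.02 to 0.03 (Scp2) and -0.02 to 0.00 (Cat), at 24 against 6 months from -0.26 to 0.07 (Crat), and in switched against lifelong livers from -0.24 to 0.01 (Ehhadh) and -0.06 to 0.10 (Crat). No member had a second probe set.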
